A study of Mus musculus with 23 samples.

Results

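The carboxylesterases (Ces) are a family of serine hydrolases that cut ester, amide and thioester bonds. In the liver they sit mostly in the lumen of the endoplasmic reticulum, where they hydrolyse ester drugs and prodrugs and break down stored acylglycerols and cholesterol esters, and some members are secreted into plasma. The pregnane X receptor PXR (gene *Nr1i2*) is a ligand-activated nuclear receptor that pairs with RXR on DNA and switches on genes of drug metabolism, of which *Cyp3a11* is the classical mouse example, and PCN (pregnenolone 16α-carbonitrile) is its pharmacological rodent ligand. The genes described here are the 10 carboxylesterases *Ces1b*, *Ces1c*, *Ces1d*, *Ces1e*, *Ces1f*, *Ces1g*, *Ces2a*, *Ces2c*, *Ces2e* and *Ces3a*, taken by gene name among 37074 gene names on a liver expression array. Each had 1 probe, and all 10 probes were well above background and unsaturated on all 23 arrays.

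All mice were male, on the C57Bl/6J background and killed at ZT6, which is 6 h after the last injection. The sample labels call the mice fed at that hour, the text of the study semi-fasted. WT CONT (n = 6) and WT PCN (n = 5) were C57BL/6J mice purchased at 6 weeks of age, and *Pxr*-/- CONT (n = 6) and *Pxr*-/- PCN (n = 6) were backcrossed knockouts bred for 10 years in the facility of the study, whose age was not given in the sources used here. The mice were acclimatized for 2 weeks before they were allocated to the groups. Treatment lasted 4 days, with 1 intraperitoneal dose a day of either PCN (100 mg/kg) dissolved in corn oil or, in the CONT groups, the oil by itself. Genotype and colony of origin cannot be told apart in this design, and 1 of the 6 mice allocated to WT PCN has no array here. The arrays were washed in 2 batches, each with 3 arrays of every group except for 2 of WT PCN in batch 2.

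The values below are log2 signals after quantile normalization, so a difference of 1 is a doubling. A gene was called where limma gave an adjusted p of at most 0.05 over 32086 tested probes and a fold over 1.5. The arrays correlated with the others of their group at a mean r of 0.989 to 0.994. Before normalization the mean log2 signal of WT PCN arrays exceeded that of WT CONT arrays by 0.14. The *Nr1i2* probe did not separate the genotypes (*Pxr*-/- minus WT -0.03 in CONT mice, SE 0.279, adjusted p = 0.977 by limma), and its position relative to the deleted part of the gene was not analysed here, so it checks nothing. The PXR target *Cyp3a11* gained 3.55 with PCN in WT mice and 0.31 in *Pxr*-/- mice, and only the former was called. The listed targets *Cyp2c55* and *Cyp2b10* gained 6.26 and 6.76 in WT mice, both called. In *Pxr*-/- mice they gained 0.54 and 1.57, neither called. Without PCN, *Cyp2c55* was called higher in *Pxr*-/- than in WT mice, by 2.80 (adjusted p = 1.53e-07 by limma). All 6 hepatocyte markers, *Alb* among them, were above background on all 23 arrays, and of 6 adipocyte markers *Cfd*, *Lep* and *Cidec* were so on all 23, *Plin1* on 16, *Retn* on 6 and *Adipoq* on 0. In bulk liver RNA, fewer cells of a type and less RNA per cell cannot be told apart.

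The probes show what was measured for the members that the results turn on. The genes lie in a pair of clusters on chromosome 8 (mm9, the build of the array annotation). The *Ces1* probes are on the minus strand between 95581314 and 95826781, and the *Ces2* and *Ces3a* probes are on the plus strand between 107263207 and 107582295. The *Ces2a* probe lies at chr8:107263207-107263266 and the *Ces1d* probe at chr8:95698949-95699008. The *Ces1g* probe lies at chr8:95826722-95826781, and its first 30 bases are shown.
Ces2a: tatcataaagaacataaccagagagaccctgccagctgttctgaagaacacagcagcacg
Ces1d: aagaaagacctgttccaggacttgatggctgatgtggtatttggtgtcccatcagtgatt
Ces1g: agagtctggagctaagaaaagggtgacttt

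Some family members are close copies, and this limits which gene a probe reads. The *Ces1b* and *Ces1c* probes could be laid over each other for 55 bases, of which 49 matched, and capitals mark the 6 positions that differ. The 60 bases of the *Ces1b* probe cover 2934 bases of the genome and those of *Ces1c* cover 3452, so both cross at least 1 exon junction.
Ces1b: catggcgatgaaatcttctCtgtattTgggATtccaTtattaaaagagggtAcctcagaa
Ces1c: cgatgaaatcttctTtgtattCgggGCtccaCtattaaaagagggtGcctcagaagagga

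The *Ces2c* probe shares an identical run of 24 bases with the probe of its neighbour *Ces2b*, in capitals in the 30-base stretches here, and 31 of 34 bases match over the whole overlap.
Ces2b: attTGTCACCTCAGTCTTTGAGCTTTCctg
Ces2c: atcTGTCACCTCAGTCTTTGAGCTTTCatg

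Among all 105 pairs of the 15 tested *Ces* probes, this was the only pair that shared a run of 15 or more bases. The array annotation also lists transcripts of *Ces2d-ps* under the *Ces2c* probe and of *Ces3b* under the *Ces3a* probe, so these 2 members are uncertain as to gene.

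PCN raised 3 of the 10 members in WT mice, *Ces2a* by 10.5-fold and *Ces1g* and *Ces1d* about 2-fold each (2.16-fold and 2.09-fold), and lowered 0 (0 also at an unadjusted p under 0.05 in limma). Of all probes tested, 5.52% were called in this comparison, 3.38% as higher and 2.13% as lower. In *Pxr*-/- mice PCN raised 2 members, *Ces1g* by 1.92-fold and *Ces2a* by 1.63-fold, and lowered 0 (1, *Ces1e*, at an unadjusted p under 0.05 in limma), against 1.93% of all probes called, 1.23% as higher and 0.698% as lower. The difference between the 2 PCN changes was called for *Ces2a* alone among the members, against 0.882% of all probes. The members' median change was 0.21 in WT and 0.32 in *Pxr*-/- mice, where the medians of all probes were -0.02 and -0.01.

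**Figure D1:**
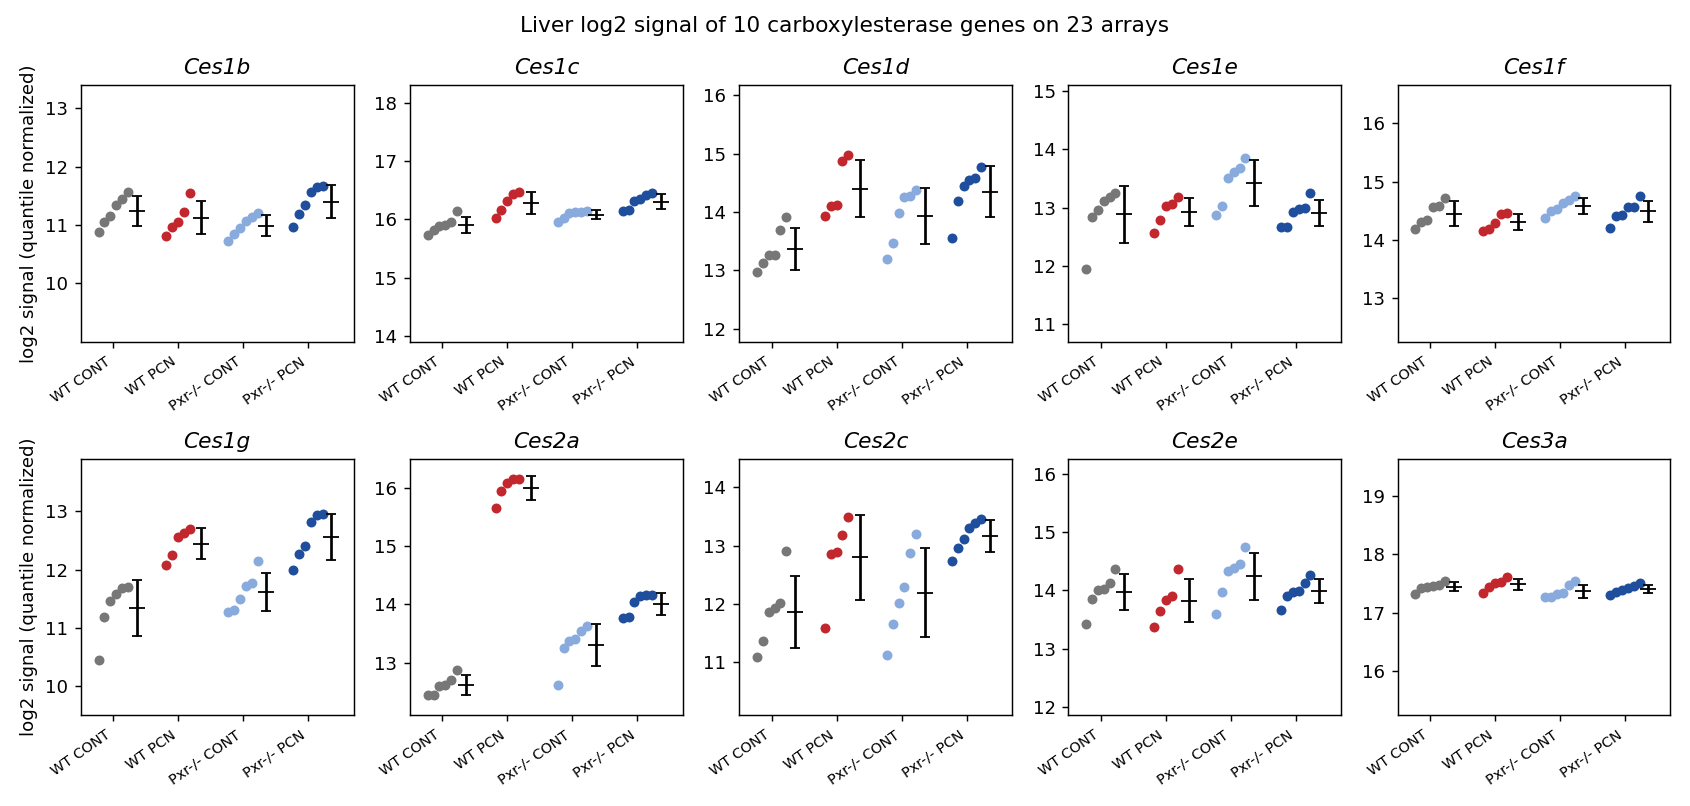
Each panel shows 1 carboxylesterase gene, with the log2 signal (quantile normalized) of every array as a point and the group mean ± SD as a bar beside it (WT PCN n = 5, the other groups n = 6). Every panel spans the same number of log2 units, and only in the *Ces2a* panel does WT PCN stand clear of all other groups, at 15.65 to 16.15.

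*Ces2a* encodes an endoplasmic reticulum esterase of liver and intestine that also hydrolyses acylglycerols. Its signal in WT CONT mice ran from 12.44 to 12.88 with a median of 12.61. The WT PCN arrays read 15.65, 16.15, 16.15, 16.08 and 15.94, all above the highest array of every other group. The change was 3.39 (SE 0.136, adjusted p = 1.64e-13 by limma), the rank of 19 from the top among 32086 probes. *Pxr*-/- CONT arrays ran from 12.62 to 13.62 with a median of 13.39, and *Pxr*-/- PCN arrays from 13.76 to 14.17 with a median of 14.09. These *Pxr*-/- groups did not overlap either, and PCN raised *Ces2a* there by 0.71 (SE 0.129, adjusted p = 0.00319 by limma). The change in WT exceeded that in *Pxr*-/- mice by 2.69 on the log2 scale (SE 0.188, adjusted p = 1.53e-08 by limma).

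The genotypes also differed in *Ces2a* within each treatment. Without PCN the *Pxr*-/- livers were higher than WT by 0.69 (SE 0.129, 1.61-fold, adjusted p = 0.0128 by limma). Under PCN they were lower, with a difference of -2.0 (SE 0.136, adjusted p = 7.21e-09 by limma). *Ces2a* was the only member called in either genotype comparison, against 0.271% of all probes in CONT mice and 1.79% in PCN mice. In CONT mice 8 members were higher in *Pxr*-/- than in WT mice and 2 lower. At an unadjusted p under 0.05 in limma, 4 were higher there and 0 lower, *Ces1d* (0.56) and *Ces1e* (0.54) among them. Under PCN 0 were higher and 1, *Ces2a*, lower at that level. For *Ces2a*, 1 *Pxr*-/- CONT array, replicate 2, read 12.62 and lay among the WT CONT values, 0.64 below the next *Pxr*-/- CONT array.

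The large *Ces2a* change in WT mice was called in every one of the 36 alternative fits, at 3.19 to 3.62, and so was the difference between the PCN changes in all 35 fits that gave it, at 2.42 to 2.98. The small changes were less firm. Without *Pxr*-/- CONT replicate 2 the *Pxr*-/- change was 0.58, a fold under 1.5, and in washing batch 1 alone it was 0.77 with an adjusted p of 0.148 by limma. The genotype difference in CONT mice lost its call in 4 of 36 fits. It was 0.43 in washing batch 1 alone (adjusted p = 0.728 by limma), 0.56 with the deposited values (adjusted p = 0.0841 by limma) and 0.69 both with slide as a fixed block and with only the groups compared (adjusted p = 0.0761 and 0.116 by limma).

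*Ces1g* encodes a liver esterase that also takes part in hepatic lipid handling. WT CONT arrays ran from 10.45 to 11.70 with a median of 11.52. The WT PCN arrays read 12.56, 12.70, 12.62, 12.08 and 12.25, all above the WT CONT arrays. The change was 1.11 (SE 0.216, adjusted p = 8.57e-04 by limma). *Pxr*-/- CONT arrays ran from 11.27 to 12.14 with a median of 11.61, and *Pxr*-/- PCN arrays from 12.00 to 12.95 with a median of 12.61, an overlap of the lowest PCN with the highest CONT array. PCN raised *Ces1g* there by 0.94 (SE 0.205, adjusted p = 0.00897 by limma). The 2 changes differed by 0.17 with a 95% confidence interval of -0.45 to 0.79 (adjusted p = 0.85 by limma), so a difference between the genotypes was not detectable, and the interval does not show that they respond alike. The change was positive on all 4 slides that held both WT groups (0.51 to 1.44) and on all 4 that held both *Pxr*-/- groups (0.48 to 1.32).

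*Ces1d*, also known as triacylglycerol hydrolase, releases fatty acids from stored triglyceride for lipoprotein assembly. WT CONT arrays ran from 12.98 to 13.91 with a median of 13.26. The WT PCN arrays read 14.10, 14.87, 14.98, 13.93 and 14.12, and the lowest of them lay just above the highest WT CONT array. The change was 1.07 (SE 0.224, adjusted p = 0.00165 by limma). In *Pxr*-/- mice the CONT arrays ran from 13.20 to 14.38 (median 14.13) and the PCN arrays from 13.56 to 14.77 (median 14.50), with much overlap. The change there was 0.42 (SE 0.213, adjusted p = 0.256 by limma). The difference between the changes was 0.64 and was not called (adjusted p = 0.348 by limma), so the WT change is not shown to differ from that in *Pxr*-/- mice.

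Of the 3 members called in WT mice, *Ces1d* differed most in its change between the washing batches. In batch 2 the 2 WT PCN arrays read 14.87 and 14.98 and the 3 WT CONT arrays 12.98 to 13.26, a change of 1.80 (adjusted p = 3.56e-05 by limma within the batch). In batch 1 the 3 WT PCN arrays read 13.93 to 14.12 and the WT CONT arrays 13.27 to 13.91, a change of 0.43 (adjusted p = 0.319 by limma). The difference between the PCN changes was -0.13 in batch 1 and 1.52 in batch 2, where it was called (adjusted p = 0.00271 by limma). In batch 2 alone *Ces1d* was also called higher in *Pxr*-/- than in WT CONT mice, by 1.18 (adjusted p = 0.00453 by limma). Over both batches that genotype difference was 0.56 in CONT mice and -0.09 in PCN mice, neither called (adjusted p = 0.324 and 0.856 by limma). For *Ces1g* the WT change was 0.72 in batch 1 (adjusted p = 0.0586 by limma) and 1.55 in batch 2 (adjusted p = 0.0233 by limma), and the *Pxr*-/- change was 0.95 and 0.93, neither called (adjusted p = 0.11 and 0.144 by limma). For *Ces2a* the WT change was 3.19 and 3.62, called in both. Whether the changes differ between the washing batches was not tested.

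**Figure D2:**
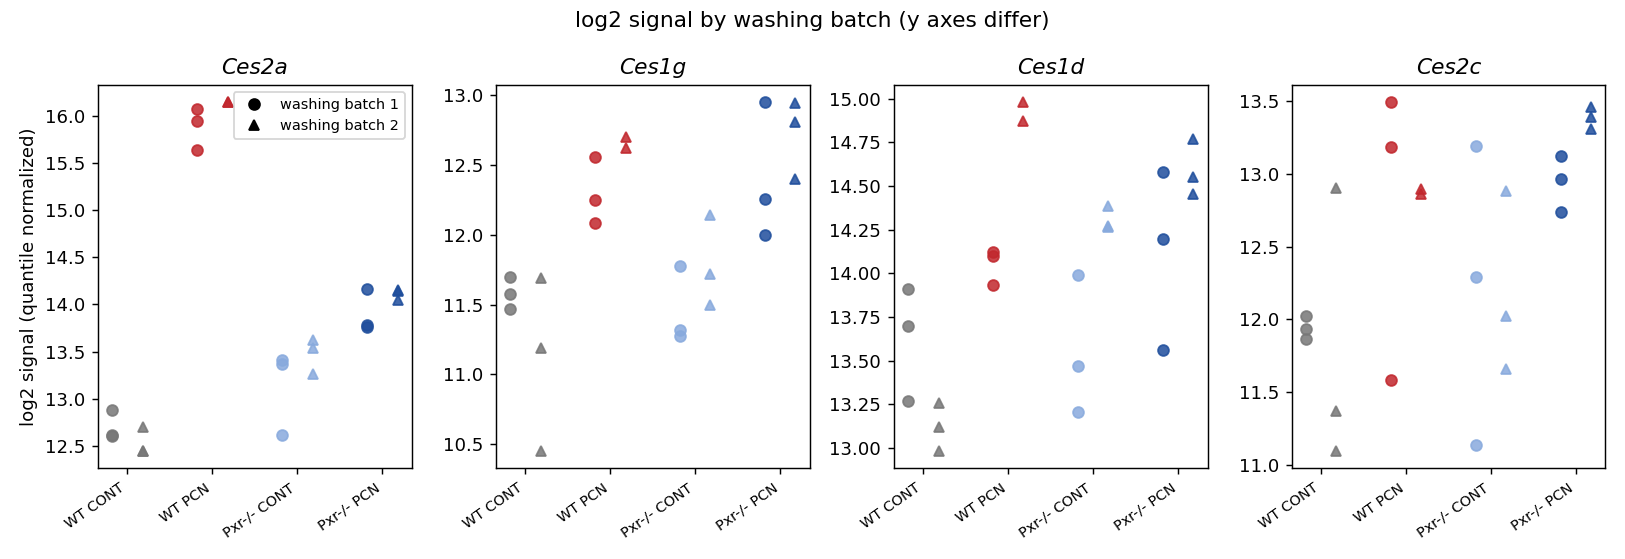
log2 signal (quantile normalized) of 4 members on each array, with circles for washing batch 1 and triangles for washing batch 2 and a separate y axis per gene. The 2 batch 2 arrays of WT PCN sit at 14.87 and 14.98 for *Ces1d*, above the 3 batch 1 arrays at 13.93 to 14.12, whereas for *Ces2a* both batches of WT PCN stand above all other groups.

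*Ces2c* encodes an endoplasmic reticulum esterase and acylglycerol hydrolase of liver and intestine. Its PCN changes were 0.95 in WT (SE 0.354, adjusted p = 0.0565 by limma) and 0.97 in *Pxr*-/- mice (SE 0.336, adjusted p = 0.0883 by limma), and neither was called. WT CONT arrays ran from 11.09 to 12.90 with a median of 11.90. The WT PCN arrays read 13.49, 12.86, 12.90, 11.58 and 13.19. Replicate 4 of WT PCN, at 11.58, fell inside the WT CONT range, and replicate 4 of WT CONT, at 12.90, fell inside the WT PCN range. *Pxr*-/- CONT arrays spread from 11.13 to 13.19 (median 12.16) and *Pxr*-/- PCN arrays from 12.73 to 13.46 (median 13.21). The WT change was called without WT PCN replicate 4 (1.24, adjusted p = 0.0118 by limma), without WT CONT replicate 4 (1.15, adjusted p = 0.0206 by limma), without *Pxr*-/- CONT replicate 2 (0.94, adjusted p = 0.0422 by limma) or 4 (0.96, adjusted p = 0.0378 by limma), and with the deposited values (1.12, adjusted p = 0.0254 by limma). The *Pxr*-/- change was called only without *Pxr*-/- CONT replicate 4 (1.19, adjusted p = 0.0322 by limma).

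The *Ces2b* probe, which shares 24 bases with that of *Ces2c*, carried nearly the same array-to-array pattern. Over the 23 arrays their deviations from a fit of group and washing batch correlated at r = 0.986, given as a description. The arrays share RNA, slides and normalization, and cross-hybridization between the 2 probes was not tested. *Ces2b* rose by 1.07 in WT mice (SE 0.368, adjusted p = 0.0387 by limma), a call that was lost without any of 7 single arrays and in 5 other fits. Its change was 0.97 in *Pxr*-/- mice (SE 0.350, adjusted p = 0.101 by limma). The *Ces1b* and *Ces1c* probes, which differ at 6 of 55 positions, correlated at r = 0.763 in the same way, and their WT changes were -0.11 and 0.38.

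**Figure D3:**
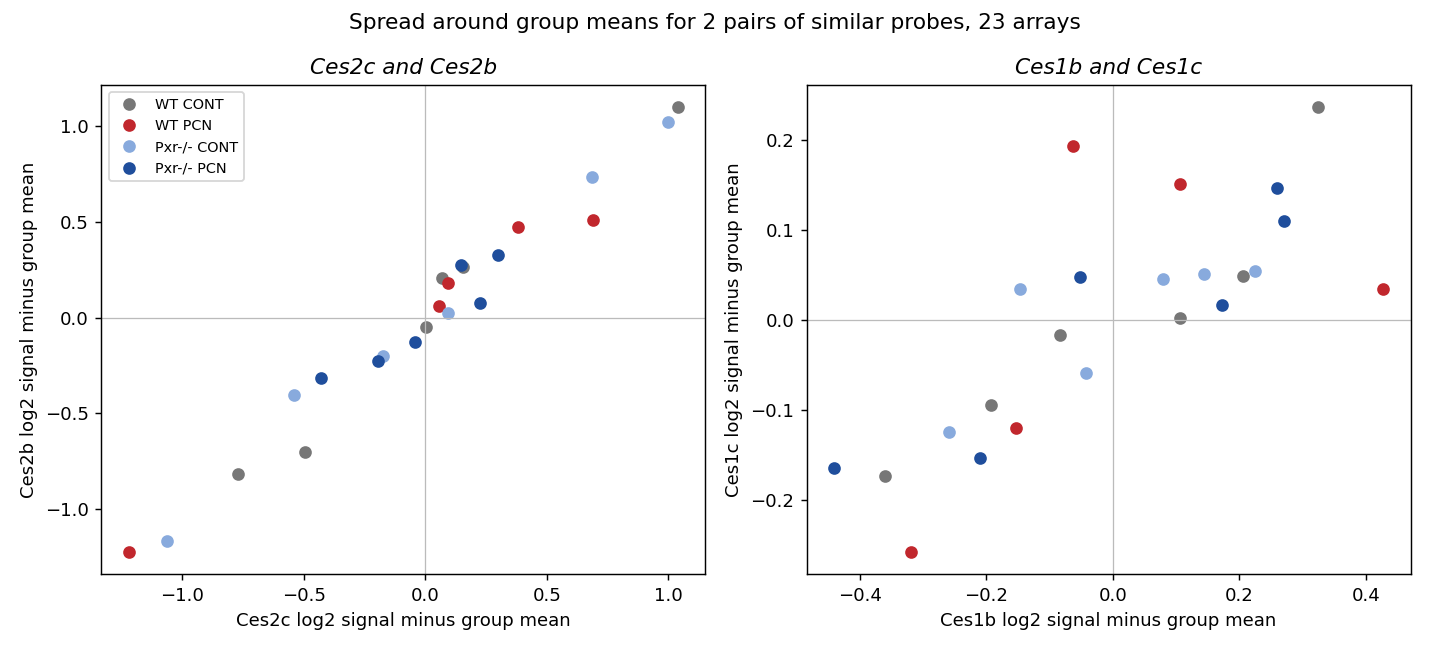
Deviation of each array from its group mean (log2 signal) for the pairs of similar probes, *Ces2c* with *Ces2b* on the left and *Ces1b* with *Ces1c* on the right, coloured by group (23 arrays each). The *Ces2* points fall close to a line, and the *Ces1* points scatter more. The correlations given in the text (r = 0.986 and 0.763) also had washing batch removed, which the points shown do not.

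*Ces1c* encodes the secreted esterase abundant in mouse plasma. Its WT CONT arrays ran from 15.74 to 16.14, and the WT PCN arrays read 16.16, 16.31, 16.43, 16.47 and 16.02. The change of 0.38 passed the p threshold (SE 0.086, adjusted p = 0.00303 by limma), but at 1.30-fold it was too small to be called. In *Pxr*-/- mice the change was 0.22 (SE 0.081, adjusted p = 0.102 by limma), and the PCN arrays (16.14 to 16.45) did not overlap the CONT arrays (15.96 to 16.13). Non-overlap with PCN higher was seen for 3 members in WT mice (*Ces2a*, *Ces1g* and *Ces1d*), against 5.52% of all probes, and for 2 in *Pxr*-/- mice (*Ces2a* and *Ces1c*), against 1.46%. With the deposited values the *Ces1c* change in WT mice was 0.59 and was called (adjusted p = 5.35e-04 by limma), on a scale where the median of all probes stood at 0.11.

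The other 5 members passed no threshold in any comparison. *Ces1e*, known as egasyn, holds β-glucuronidase in the endoplasmic reticulum. Its signal ran from 11.95 to 13.25 in WT CONT, 12.57 to 13.17 in WT PCN, 12.87 to 13.85 in *Pxr*-/- CONT and 12.66 to 13.25 in *Pxr*-/- PCN mice. Its PCN change was 0.05 in WT (SE 0.204) and -0.51 in *Pxr*-/- mice (SE 0.194, adjusted p = 0.119 by limma). *Ces1b*, another *Ces1* esterase, ran from 10.73 to 11.67 over all 4 groups, with PCN changes of -0.11 in WT (SE 0.146) and 0.41 in *Pxr*-/- mice (SE 0.139, adjusted p = 0.078 by limma). The difference between these 2 changes was -0.52 (adjusted p = 0.223 by limma).

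*Ces1f* ran from 14.16 to 14.76, with changes of -0.14 in WT (SE 0.104) and -0.09 in *Pxr*-/- mice (SE 0.099). *Ces2e* ran from 13.37 to 14.74, with changes of -0.13 in WT (SE 0.187) and -0.26 in *Pxr*-/- mice (SE 0.178). *Ces3a* had the smallest range of the 10 members. Its arrays ran from 17.27 to 17.61, and its changes were 0.04 in both genotypes, with 95% confidence intervals of -0.10 to 0.17 in WT and -0.09 to 0.17 in *Pxr*-/- mice.

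**Figure D4:**
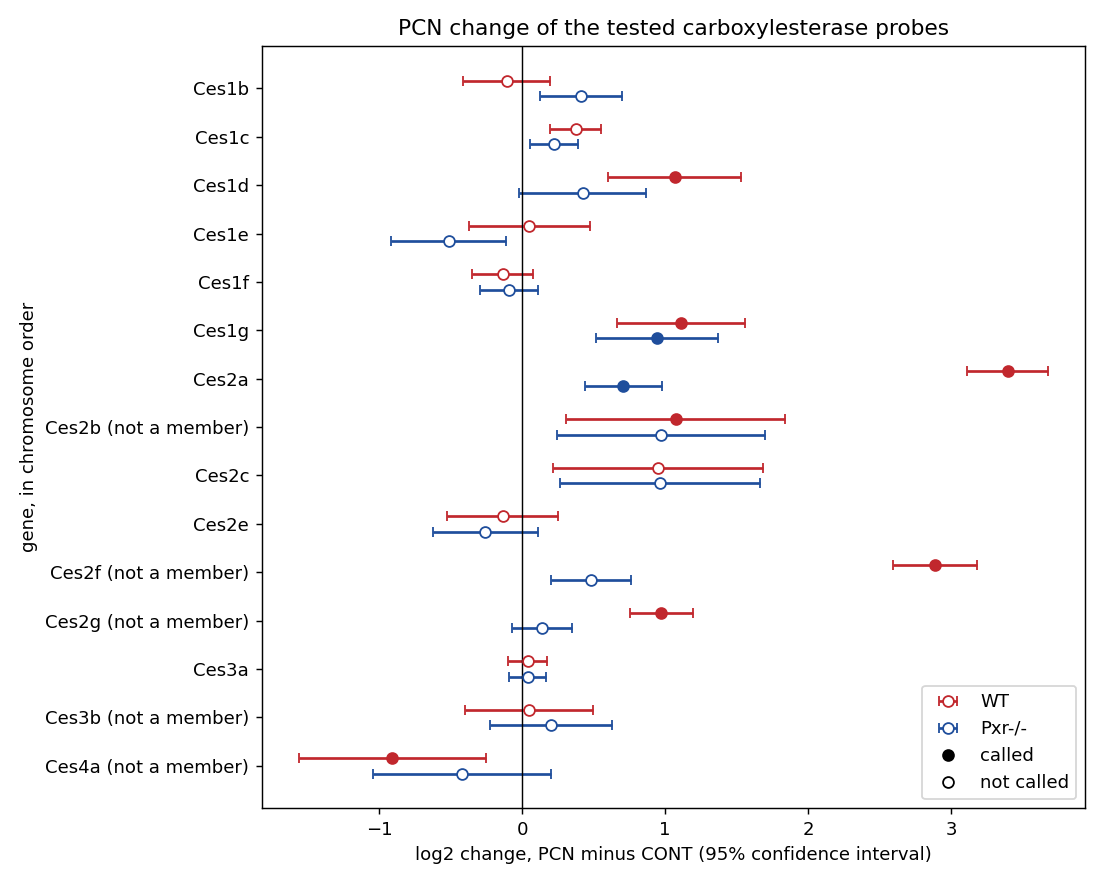
PCN minus CONT change (log2) with its 95% confidence interval for the 15 tested *Ces* genes in chromosome order, red for WT and blue for *Pxr*-/- mice, filled where called. *Ces2a* at 3.39 and *Ces2f* at 2.88 stand apart in WT mice, with *Ces2e* between them at -0.13.

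Members that were called lay beside members that were not. Along the *Ces1* cluster the WT changes were -0.11 for *Ces1b*, 0.38 for *Ces1c*, 1.07 for *Ces1d*, 0.05 for *Ces1e*, -0.14 for *Ces1f* and 1.11 for *Ces1g*. The *Ces2* cluster holds 5 further tested genes outside the 10 members, of which *Ces2b* is described above. *Ces2f* rose by 2.88 in WT mice (SE 0.141, adjusted p = 4.48e-12 by limma) and by 2.41 more than in *Pxr*-/- mice (adjusted p = 8.91e-08 by limma). Its change of 0.48 in *Pxr*-/- mice passed the p threshold (SE 0.134, adjusted p = 0.035 by limma), but at 1.39-fold it was too small to be called. *Ces2g* rose by 0.97 in WT mice (SE 0.106, adjusted p = 2e-06 by limma) and by 0.84 more than in *Pxr*-/- mice (adjusted p = 0.00266 by limma), a difference of 0.74 in washing batch 1 and 0.92 in batch 2, neither called within its batch (adjusted p = 0.0701 and 0.13 by limma). *Ces4a* fell by 0.91 in WT mice (adjusted p = 0.0405 by limma), a call lost without any of 9 single arrays and in 7 other fits, from a probe above background on 4 of the 5 WT PCN arrays, and *Ces3b* changed by 0.05 (SE 0.215). In all, 3 of these 5 genes were called higher and 1 lower in WT mice, against 3.38% and 2.13% of all probes. In *Pxr*-/- mice 0 were called, against 1.93% of all probes, and 2 of 5 passed an unadjusted p under 0.05 without meeting both thresholds. The difference between the PCN changes was not called for *Ces2b* (0.10, adjusted p = 0.954 by limma) or *Ces4a* (-0.49, adjusted p = 0.666 by limma). Under PCN, 2 of the 5 were called lower in *Pxr*-/- than in WT mice, against 1.79% of all probes. These were *Ces2f* (-1.84, adjusted p = 2.07e-08 by limma) and *Ces2g* (-0.60, adjusted p = 0.00132 by limma). Without PCN 0 were called for genotype, with *Ces2f* 0.56 higher in *Pxr*-/- mice (adjusted p = 0.0696 by limma). Another 4 *Ces* genes on the array (*Ces1a*, *Ces1h*, *Ces2h* and *Ces5a*) were too dim to be tested.

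Promoters of 7 members were found in the RefSeq table (GRCm38.p6), and those of *Ces2a*, *Ces2c* and *Ces2e* are shown with that of *Ces2f* because these neighbours differ in their PCN change. Each is the 250 bases before the start, on the plus strand, at chr8:104733753-104734002 for *Ces2a*, chr8:104846818-104847067 for *Ces2c*, chr8:104926010-104926259 for *Ces2e* and chr8:104947106-104947355 for *Ces2f*. Capitals mark ACTTTGCCC, a stretch chosen after these sequences were seen.
Ces2a: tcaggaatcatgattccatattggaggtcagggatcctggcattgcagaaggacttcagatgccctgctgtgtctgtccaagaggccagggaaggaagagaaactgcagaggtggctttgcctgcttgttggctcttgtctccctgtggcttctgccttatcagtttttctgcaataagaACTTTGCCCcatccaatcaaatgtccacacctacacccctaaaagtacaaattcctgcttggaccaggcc
Ces2c: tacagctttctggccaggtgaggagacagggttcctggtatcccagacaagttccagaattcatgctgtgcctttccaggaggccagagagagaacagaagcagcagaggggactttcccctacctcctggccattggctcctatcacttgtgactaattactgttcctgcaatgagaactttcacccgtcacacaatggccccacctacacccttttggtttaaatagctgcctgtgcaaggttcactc
Ces2e: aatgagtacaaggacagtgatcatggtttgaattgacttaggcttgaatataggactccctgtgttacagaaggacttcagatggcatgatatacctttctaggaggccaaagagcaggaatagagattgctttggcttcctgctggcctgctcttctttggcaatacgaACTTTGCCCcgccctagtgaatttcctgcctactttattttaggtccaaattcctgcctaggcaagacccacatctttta
Ces2f: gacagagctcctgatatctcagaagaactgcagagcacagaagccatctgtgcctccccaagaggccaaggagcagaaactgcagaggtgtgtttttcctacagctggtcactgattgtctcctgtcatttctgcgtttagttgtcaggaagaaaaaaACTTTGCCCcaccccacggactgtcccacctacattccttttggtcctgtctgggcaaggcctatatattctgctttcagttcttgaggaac

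After alignment the *Ces2a* promoter matched that of *Ces2c* at 70.0% of its bases, that of *Ces2f* at 68.8% and that of *Ces2e* at 65.6%. It matched that of *Ces2g* at 62.4% and those of the other 10 *Ces* genes in the table, the *Ces1* genes of the distant cluster among them, at 57.6% to 61.2%. ACTTTGCCC, searched on both strands, was in the promoters of *Ces2a*, *Ces2e*, *Ces2f* and *Ces2g* and in 0.222% of the 32851 promoters of the table. It was therefore present both in genes that rose with PCN in WT mice and in *Ces2e*, at -0.13. The hexamers AGTTCA and AGGTCA, the cores of nuclear receptor sites, were searched on both strands. AGGTCA was in the promoter of *Ces2a* (14.0% of all promoters) and AGTTCA in that of *Ces1b* (11.8%). Direct repeats of either hexamer with 3 or 4 bases between them and everted repeats with 6 were in 0 of the 7 member promoters, and in 0.0122%, 0.0244% and 0.00913% of all promoters. No match says only that these letters are not in this window.

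Outside the carboxylesterase family, the genes whose signal ran most like *Ces2a* over the 23 arrays were *Cyp3a59* (r = 0.984), *Cyp3a11* (r = 0.973), *Cyp3a16* (r = 0.963), *Krt31* (r = 0.961) and *Rnf150* (r = 0.959), given as a description over arrays of the same 4 groups. *Cyp3a11*, which encodes the main mouse CYP3A drug oxidase, stood 0.69 above WT in *Pxr*-/- CONT mice, which was not called, where *Ces2a* stood 0.69 above and was called.

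Other hydrolases of esters and lipids were read from a list of 18 genes, of which 17 were tested. In WT mice 0 were called higher (2 at an unadjusted p under 0.05 in limma) and 1 lower, with a median change of -0.06, where 5.52% of all probes were called. The one called was *Mgll*, which encodes monoacylglycerol lipase, and it fell by 0.88 (SE 0.179, adjusted p = 0.00131 by limma), a call lost in washing batch 2 alone (-0.75, adjusted p = 0.0971 by limma). In *Pxr*-/- mice 0 of the 17 were called by limma, and 3 were higher and 3 lower at an unadjusted p under 0.05. *Mgll* was among the lower ones there, at -0.46 (SE 0.171, adjusted p = 0.114 by limma). The difference between its 2 PCN changes was -0.42 and was not called (adjusted p = 0.46 by limma). *Aadac*, the microsomal arylacetamide deacetylase, changed by -0.19 in WT and -0.18 in *Pxr*-/- mice, neither called. Of the 4 listed partners of endoplasmic reticulum retention, 2 were called higher in WT mice, against 3.38% of all probes. In *Pxr*-/- mice 0 were called, against 1.93% of all probes (1 higher and 1 lower there at an unadjusted p under 0.05 in limma). *Gusb*, the β-glucuronidase that egasyn binds, rose by 0.61 in WT mice (SE 0.079, adjusted p = 1.69e-05 by limma), 0.73 more than in *Pxr*-/- mice (adjusted p = 5.38e-04 by limma), while the egasyn gene *Ces1e* changed by 0.05. The *Gusb* change had a fold under 1.5 in washing batch 1 alone (0.51), without WT CONT replicate 6 (0.56) and without WT PCN replicate 3 (0.58), and the difference was not called within batch 1 (0.60, adjusted p = 0.0931 by limma) or batch 2 (0.88, adjusted p = 0.0855 by limma). *Kdelr3*, a receptor that returns proteins to the endoplasmic reticulum, rose by 0.73 in WT mice (SE 0.156, adjusted p = 0.00191 by limma). That change was not called with normexp background correction (0.48, a fold under 1.5) or in washing batch 2 alone (0.74, adjusted p = 0.115 by limma), and was 1.47 with processed signals. The *Kdelr3* signal was low, with group means of 5.27 to 6.17. It was above background on 5 of 6 WT CONT, 5 of 5 WT PCN, 2 of 6 *Pxr*-/- CONT and 5 of 6 *Pxr*-/- PCN arrays. In *Pxr*-/- mice *Kdelr3* changed by 0.45, which was not called (SE 0.148, adjusted p = 0.0724 by limma). The difference between the 2 changes was 0.28 (adjusted p = 0.604 by limma), so the WT change is not shown to differ from that in *Pxr*-/- mice.

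Markers of other cell types were read from lists in the same way. Of 6 stellate cell markers, *Col1a1* and *Col3a1*, which encode fibrillar collagens, were called higher, by 3.17 and 2.18 in WT and by 1.96 and 1.22 in *Pxr*-/- mice. The other 4 were not called, with WT changes of -0.47 for *Lrat*, -0.02 for *Dcn*, 0.08 for *Reln* and 0.09 for *Des*, and the median of the list was 0.09 in WT mice. The summed stellate signal ran from 20946 to 35403 in WT CONT and from 28088 to 38756 in WT PCN. Of 5 tested cholangiocyte markers, *Sox9*, a transcription factor of bile duct cells, was called higher in WT mice (0.76, adjusted p = 0.0109 by limma), and 0 were called in *Pxr*-/- mice (3 higher at an unadjusted p under 0.05 in limma). Their median change was 0.73 in WT and 0.62 in *Pxr*-/- mice, positive for 4 of 5 in each, and their summed signal ran from 1443 to 4689 in WT CONT and from 3275 to 7976 in WT PCN. Of 6 enterocyte markers 2 were tested, and *Fabp2*, the intestinal fatty acid-binding protein, fell by 1.55 in WT (adjusted p = 1.09e-06 by limma) and by 0.81 in *Pxr*-/- mice (adjusted p = 0.00393 by limma), while *Apoa4* changed by -0.05 and 0.70, neither called. The summed hepatocyte signal ran from 941554 to 1193090 in WT CONT and from 976534 to 1055830 in WT PCN, with 0 of 6 markers called in WT mice (0 also at an unadjusted p under 0.05 in limma) and 1, *Apoa1*, called higher in *Pxr*-/- mice (0.62). The Kupffer cell, endothelial, lymphocyte, blood, pancreas and adipocyte lists held 0 genes called for PCN by limma in either genotype. At an unadjusted p under 0.05 the endothelial list held 2 higher and 1 lower in WT and 3 higher in *Pxr*-/- mice, the blood list 1 and 2 lower, and the lymphocyte list 1 lower in WT mice. The part of these markers in the changes of the carboxylesterases was not tested.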

How the data were processed

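Liver RNA of 23 mice was labelled with Cy3 (150 ng per sample) and hybridised on 1-colour Agilent arrays in 2 washing batches on 8 slides. Per the file headers, the deposited scanner files hold the intensity of each spot from Agilent Feature Extraction 10.10.1.1. The authors also deposited log2 values, which they had filtered, corrected for washing batch and normalized with CrossNorm before testing with limma. The number of arrays limits the precision.

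Here the median signal intensity was taken without background subtraction. Outlier-flagged spots were set missing (82 missing values among the tested probes), spots of a probe were averaged on the log2 scale, and control spots were left out. Probes were kept where well above background on over 50% of the arrays of at least 1 group (32086 of 56605), then quantile normalized. limma 3.58.1 (R 4.3.3) fitted group and washing batch on all 23 arrays, with Benjamini-Hochberg adjustment over all kept probes of each contrast. Gene calls needed an adjusted p of at most 0.05 and a fold over 1.5. The script was tested on simulated data. Gene names are those of the array annotation. All members are described, *Ces* genes and called genes of the lists may be named, as are the 5 named genes outside the family most correlated with *Ces2a*. The members and the lists were chosen with earlier results of these data known. The labels name each sample as a separate mouse only by replicate number, so p-values measure the spread between these samples. Each washing batch held all 4 groups and was also fitted alone. Probe sequences and positions come from the array annotation and promoters from RefSeq, aligned with Biopython.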

Additional observations from a re-analysis of the deposited data

Results flagged for a closer look

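In 7 of 60 groups of 5 or 6 arrays, 1 array lay far from the rest by Dixon's test, where chance alone gives about 5%. Among the members these were *Ces1e* in WT CONT replicate 6, at 11.95 with the next array at 12.84, and *Ces2a* in *Pxr*-/- CONT replicate 2, at 12.62 with the next at 13.26. The same *Pxr*-/- CONT array was also low for *Ces2f*, at 6.60 with the next at 7.22. The others were *Ces2b* in WT PCN replicate 4 (10.50), *Ces2g* in *Pxr*-/- PCN replicate 2 (10.51), *Ces3b* in WT CONT replicate 2 (13.73) and *Ces4a* in the same WT CONT array (5.58).

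The PCN change differed between the genotypes by limma's interaction test for *Ces2a* (2.69, adjusted p = 1.53e-08), *Ces2f* (2.41, adjusted p = 8.91e-08) and *Ces2g* (0.84, adjusted p = 0.00266), each larger in WT mice.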

How the results depend on the processing

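Over the single-gene comparisons of the *Ces* genes, 723 of 794 values from other settings and 1363 of 1426 from leaving out 1 array kept their direction and their side of the thresholds. With the deposited values, on which the median of all probes moved to 0.11 for PCN in WT mice and to -0.18 for genotype in PCN mice, 5 members were called in WT mice and 0 for genotype in CONT mice. The split of all calls for PCN in WT mice was 1925 higher and 355 lower there, 1488 and 1395 with processed signals, and 1085 and 685 in the analysis reported. In washing batch 1 alone 1 member was called in WT mice, 0 in *Pxr*-/- mice and 0 for genotype in CONT mice, and in batch 2 alone 1 in *Pxr*-/- mice, 2 for the difference between the PCN changes and 2 for genotype in CONT mice. Genotype in CONT mice gave 0 members with slide as a fixed block, an alternative chosen after seeing the data, and 0 with only the groups compared (*Ces2a* 0.69 in both, adjusted p = 0.0761 and 0.116 by limma). Leaving out 1 array gave 1 to 3 members in *Pxr*-/- mice and 3 to 4 in WT mice. Of the other carboxylesterases, 2 were called in WT mice without a filter, in either batch alone and with only the groups compared (2 to 4 without 1 array), 1 in *Pxr*-/- mice with processed signals (0 to 1 without 1 array), 1 for the difference in either batch, 1 for genotype in CONT mice with processed signals (0 to 1) and, for genotype in PCN mice, 1 in batch 2 (1 to 2 without 1 array). Of the other hydrolases, 2 were called in WT mice with the deposited values and with processed signals and 0 in batch 2 (1 to 2 without 1 array), and for genotype in PCN mice 2 with the deposited values and 1 in batch 1 (0 to 1). The causes were not tested. Every member has 1 probe, so no other probe could be tried, and the fit of only the groups compared gives no difference between the PCN changes.

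The replicate numbers were not taken as pairs, and whether they mark pairs was not tested against chance. Of 22 same-numbered pairs 11 had correlated deviations over 0.1 (range -0.13 to 0.61) and 8 correlated best with their own number. Between WT CONT and *Pxr*-/- CONT, replicates 1 to 4 correlated at 0.27 to 0.61, each best with its own number, and replicates 5 and 6 at 0.0047 and -0.04. With a replicate block the member counts were 3, 2, 1, 1 and 1 in the order of the comparisons above, and of the other carboxylesterases 1 was called for genotype in PCN mice. With that block the genotype difference of *Ces1e* in PCN mice was 0.026 and the *Ces3a* difference between the PCN changes 0.00828, both of changed sign.

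Other changes of sign were all of values that were not called in the analysis reported. For PCN in WT mice the deposited values gave *Ces1b* 0.048, *Ces1f* 0.12 and *Ces2e* 0.093, batch 2 gave *Ces1b* 0.22, batch 1 gave *Ces1e* -0.28 and *Ces3b* -0.089, the fixed slide block *Ces1e* -0.011, and *Ces3a* was -0.050 with processed signals and -0.043 with median centring. For PCN in *Pxr*-/- mice batch 1 gave *Ces3a* -0.026. For the difference between the PCN changes, *Ces1f* was 0.17 with the deposited values, 0.096 in batch 2, 0.095 with processed signals and 0.081 with median centring. *Ces2c* was 0.11 with the deposited values, 0.078 in batch 1, 0.037 with processed signals and 0.021 with median centring. *Ces3a* was 0.034 with the deposited values, 0.071 in batch 1, 0.019 with the fixed slide block, 0.00124 without a filter and 0.00238 without the washing batch term. Batch 1 gave *Ces1d* -0.13, *Ces1e* -0.054, *Ces1g* -0.23 and *Ces2e* -0.017. For genotype in CONT mice batch 1 gave *Ces1d* -0.071, *Ces1g* -0.12 and *Ces2e* -0.045. For genotype in PCN mice the deposited values gave *Ces1c* -0.21, *Ces1f* -0.13, *Ces1g* -0.15 and *Ces2e* -0.13, batch 1 gave *Ces1d* 0.060, *Ces1e* 0.13 and *Ces2e* -0.028, batch 2 gave *Ces1f* -0.000633, the fixed slide block *Ces1e* 0.023, and *Ces3a* was 0.084 with processed signals and 0.043 with median centring. Without 1 array, the WT change ran from -0.14 to 0.13 for *Ces1e* and -0.11 to 0.20 for *Ces3b*, the difference between the PCN changes from -0.11 to 0.025 for *Ces1f*, -0.020 to 0.27 for *Ces1g*, -0.23 to 0.28 for *Ces2c*, -0.027 to 0.24 for *Ces2e* and -0.032 to 0.038 for *Ces3a*, and the genotype difference in PCN mice from -0.037 to 0.076 for *Ces1c*, -0.18 to 0.048 for *Ces1d* and -0.11 to 0.036 for *Ces1e*.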
